A study of Mus musculus with 9 samples.

Results

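Rgs2, Rgs3, Rgs4, Rgs5 and Rgs16 encode regulators of G-protein signalling, and their right ventricular mRNA was followed over 9 mice. They are 5 of the 18820 genes that had a probe set of their own on the array. Rgs16 was chosen by its log2 values in these mice, for its rise with monocrotaline (MCT), so they are a description and carry no test. The other 4 members were taken with it as members of the same gene family, with results of these mice already known.

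All mice were female C57BL/6 animals that arrived at 8 weeks of age. MCT+NI mice (numbers 615, 617 and 619) and MCT mice (640, 641 and 644) were injected subcutaneously with MCT at 600 mg/kg each week for 8 weeks, starting at 10 weeks of age. MCT is a plant alkaloid that is used to injure the pulmonary vessels and so to load the right ventricle. Sham mice (620, 624 and 625) received saline over the same weeks. The nutritional intervention (NI) was an isocaloric diet enriched in protein, leucine, fish oil and oligosaccharides, given to the MCT+NI mice only, whereas MCT and sham mice ate the same standard diet. The labels give 2 weeks on the diets before the first injection, and the methods state a shorter time. In the whole study, the paper reports that MCT+NI mice ate less in total than MCT or sham mice. The methods describe the mice used for the arrays as matched for disease severity, so they are not a random draw from each group. There was no group that received the diet without MCT.

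RGS proteins bind the active, GTP-loaded alpha subunit of a heterotrimeric G protein and speed up its GTP hydrolysis. This shortens the signal that a G-protein coupled receptor sends to phospholipase C, adenylyl cyclase or ion channels. The 5 members belong to the R4 subfamily, which is built around the RGS domain and acts mainly on alpha subunits of the Gq and Gi classes. In heart, Rgs5 and Rgs4 are best known from pericytes and smooth muscle cells of vessels, and Rgs2 as a brake on Gq signalling that is itself induced by such signalling. Rgs4, Rgs5 and Rgs16 carry a cysteine next to the initiator methionine, through which the proteins are degraded by the N-degron pathway, so that mRNA and protein levels need not move together.

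The 250 bases before the start of each gene are shown for Rgs16, Rgs5, Rgs4 and Rgs2. By the brightest probe set of each gene, these were the members whose values did not overlap between MCT and sham mice. A further reason is that each window holds 1 CCAAT box. The sequences are those of RefSeq on build GRCm38.p6 and are written 5′ to 3′ on the strand of the gene, with CCAAT, or its reverse complement ATTGG, in capitals. The windows are chr1:153740103-153740352 on the plus strand for Rgs16, chr1:169655251-169655500 on the plus strand for Rgs5, chr1:169747643-169747892 on the minus strand for Rgs4 and chr1:144004150-144004399 on the minus strand for Rgs2.
Rgs16: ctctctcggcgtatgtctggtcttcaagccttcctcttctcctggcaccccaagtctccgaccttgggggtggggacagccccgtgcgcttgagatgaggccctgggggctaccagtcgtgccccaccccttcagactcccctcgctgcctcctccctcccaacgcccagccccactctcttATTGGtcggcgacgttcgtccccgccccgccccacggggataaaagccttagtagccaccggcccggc
Rgs5: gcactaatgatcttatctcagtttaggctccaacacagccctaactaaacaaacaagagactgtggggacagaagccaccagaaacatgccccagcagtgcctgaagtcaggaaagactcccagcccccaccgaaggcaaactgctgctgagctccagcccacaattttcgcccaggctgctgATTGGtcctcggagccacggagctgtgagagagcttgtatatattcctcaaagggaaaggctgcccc
Rgs4: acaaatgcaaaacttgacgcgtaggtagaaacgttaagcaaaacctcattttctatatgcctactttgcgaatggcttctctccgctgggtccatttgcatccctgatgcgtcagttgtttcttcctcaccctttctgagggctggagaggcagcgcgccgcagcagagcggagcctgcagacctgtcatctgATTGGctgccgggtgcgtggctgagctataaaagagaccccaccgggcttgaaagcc
Rgs2: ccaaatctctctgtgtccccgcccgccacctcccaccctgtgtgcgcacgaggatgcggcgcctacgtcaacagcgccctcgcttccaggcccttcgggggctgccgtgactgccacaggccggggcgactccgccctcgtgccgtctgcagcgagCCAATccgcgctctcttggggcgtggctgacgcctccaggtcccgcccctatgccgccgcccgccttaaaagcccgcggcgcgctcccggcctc

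All 5 members were matched to RefSeq promoters, with 6 windows in all because Rgs3 has 2. The CCAAT letters lay 64 bases before the start in Rgs16, 63 in Rgs5, 53 in Rgs4 and 90 in Rgs2, counted from the nearest base of the motif. Neither Rgs3 window held CCAAT on either strand. CCAAT occurs in 33.8% of all 32851 promoter windows of this length, so its presence in these 4 windows is a description only. The other motifs searched on both strands divided the members differently. TATAAA, present in 12.4% of all windows, was found in Rgs4, with its nearest base 26 bases before the start, and in both Rgs3 windows. GGGCGG, present in 32.7%, was found 4 times in Rgs2, 2 times with overlap in Rgs16 and 1 time in 1 of the Rgs3 windows. CGTCA, the core bound by cyclic AMP responsive factors and present in 17.8%, was found 2 times each in Rgs2 and Rgs4, and TGANTCA, present in 6.75%, in none.

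Rgs2, Rgs4, Rgs5 and Rgs16 lie on mouse chromosome 1 and Rgs3 lies on chromosome 4. Rgs4 and Rgs5 are direct neighbours among protein-coding genes, are read from opposite strands and have starts 92.1 kb apart. The neighbour of Rgs16 is Rgs8 and that of Rgs2 is Rgs13, both also R4 genes.

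Right ventricular RNA was hybridized to Affymetrix mouse gene 1.1 ST arrays, 1 array per mouse, and expression is given as the deposited log2 intensity. Array medians lay between 4.77 and 4.80, and the median gene averaged 5.42. The number of arrays, 3 per group, limits the precision. Averaged cardiomyocyte markers lay between 12.43 and 12.48 in all mice. Within this narrow range MCT mice (12.428 to 12.436) lay below sham mice (12.457 to 12.481), and MCT+NI mice overlapped with sham. Atrial markers (7 genes, among them Myl7 and Sln) were high in sham mice and varied within the injected groups: their mean was 9.12, 6.33 and 5.67 in MCT+NI mice 615, 617 and 619, against 5.56, 5.91 and 10.63 in MCT mice 640, 641 and 644 and 10.13 to 11.01 in sham mice. MCT mouse 644 and MCT+NI mouse 615 thus stood apart from the rest of their groups, and the values of the 5 members and the numbers of genes called were also computed without them.

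**Figure D1:**
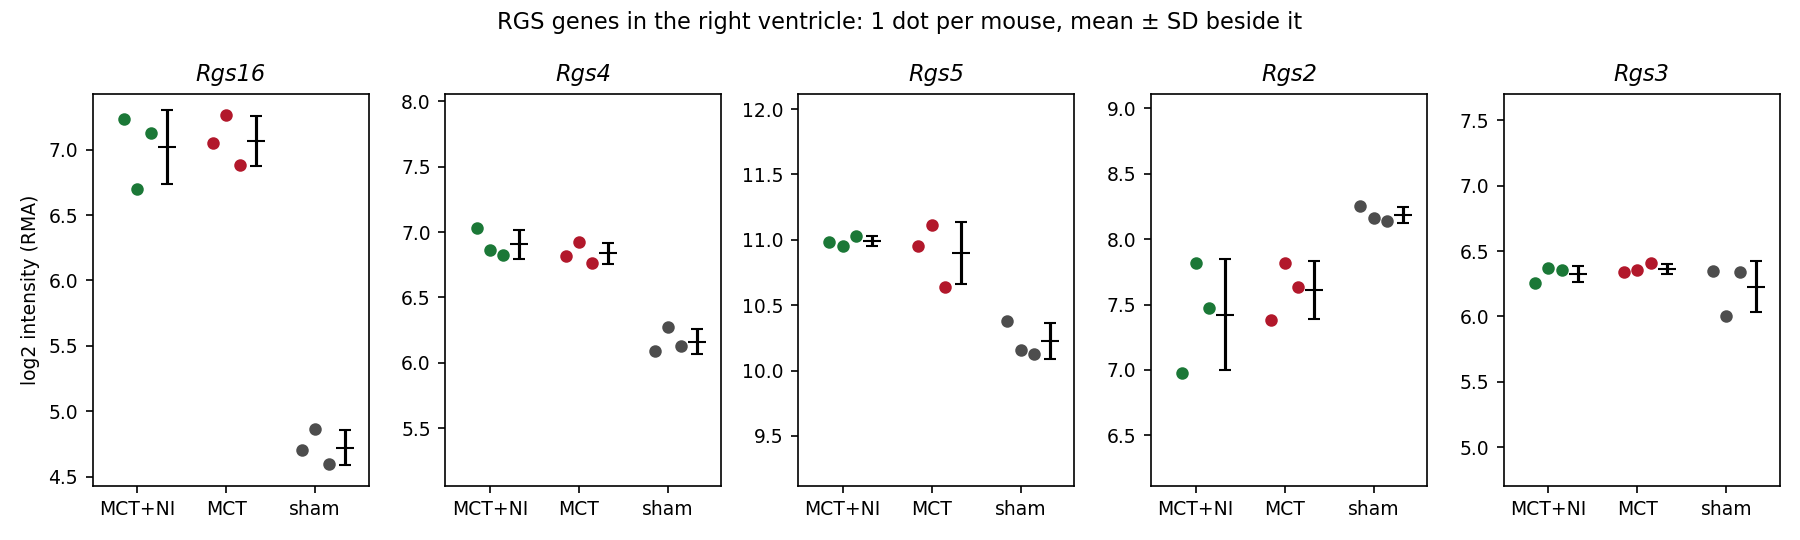
Log2 intensity of Rgs16, Rgs5, Rgs4, Rgs2 and Rgs3 in the right ventricle of each mouse (1 dot per mouse) in the MCT+NI, MCT and sham groups, with the mean and SD of 3 mice as a bar beside the dots; each panel spans the same height on the log2 scale. Rgs16 lay at 6.70 or above in each MCT-injected mouse and at 4.86 or below in each sham mouse, Rgs4 and Rgs5 were also without overlap, Rgs2 ran the other way and Rgs3, by its brighter probe set, overlapped.

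Rgs16 had the widest range of the 5 members. Its log2 intensity was 7.24, 6.70 and 7.13 in MCT+NI mice, 7.05, 7.26 and 6.89 in MCT mice, and 4.71, 4.86 and 4.597 in sham mice. All MCT-injected mice were thus far above all sham mice, in which Rgs16 was close to the array median. The means were 7.02 ± 0.284 in MCT+NI mice, 7.07 ± 0.189 in MCT mice and 4.72 ± 0.133 in sham mice (SD, n = 3 each). The difference from sham was 2.35 on the log2 scale (5.08-fold) in MCT mice and 2.30 (4.93-fold) in MCT+NI mice. MCT+NI and MCT mice overlapped, with a difference of -0.04. These differences are what Rgs16 was chosen for, so no test is given. With MCT mouse 644 and MCT+NI mouse 615 left out, Rgs16 was 2.44 above sham in MCT mice and 2.20 above sham in MCT+NI mice.

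Rgs4 and Rgs5 were higher in MCT mice than in sham mice, and were higher to a similar size in MCT+NI mice. Rgs4, which dampens Gi and Gq signals, measured 7.03, 6.87 and 6.82 in MCT+NI mice, 6.82, 6.93 and 6.76 in MCT mice, and 6.09, 6.27 and 6.13 in sham mice. Every MCT-injected mouse was above every sham mouse. The difference from sham was 0.74 on the log2 scale in MCT+NI mice (1.67-fold, limma adjusted p = 0.000811) and 0.67 ± 0.078 in MCT mice (SE, 1.596-fold, limma adjusted p = 0.0013).

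Rgs5, a marker of pericytes, measured 10.99, 10.95 and 11.03 in MCT+NI mice, 10.95, 11.11 and 10.64 in MCT mice, and 10.38, 10.16 and 10.13 in sham mice. The lowest MCT-injected mouse was MCT mouse 644, and it still lay above the highest sham mouse. The difference from sham was 0.77 in MCT+NI mice (1.70-fold, limma adjusted p = 0.00442) and 0.68 ± 0.111 in MCT mice (SE, 1.598-fold, limma adjusted p = 0.00776). The MCT+NI mice lay close together, with an SD of 0.039, whereas the SD was 0.241 in MCT mice and 0.138 in sham mice. With the mean of the atrial markers as a covariate the difference was 0.54 in MCT+NI mice (limma adjusted p = 0.052) and 0.47 in MCT mice (limma adjusted p = 0.0615), so that the call for Rgs5 was lost. Rgs4 kept its call in that fit, at 0.76 in MCT+NI mice and 0.69 in MCT mice (limma adjusted p = 0.0169 for each). The atrial mean did not overlap between MCT+NI and sham mice, and of the MCT mice only mouse 644 reached the sham range. That fit thus separates the atrial markers from the injection poorly, and no conclusion is drawn from calls lost or kept.

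Rgs2, the brake on Gq, had lower values after MCT, as did the dimmer Rgs3 probe set described below. Neither passed the test. Rgs2 measured 6.97, 7.82 and 7.47 in MCT+NI mice, 7.38, 7.82 and 7.64 in MCT mice, and 8.26, 8.16 and 8.14 in sham mice. The sham mice lay within a narrow range above all MCT-injected mice, and the MCT-injected mice were spread out. The difference from sham was -0.76 in MCT+NI mice (95% interval -1.20 to -0.33, limma adjusted p = 0.0504) and -0.57 in MCT mice (95% interval -1.005 to -0.14, limma adjusted p = 0.132). The call depended on single mice: without MCT+NI mouse 617 the difference between MCT+NI and sham mice was -0.96 (limma adjusted p = 0.0126), and without MCT+NI mouse 615, which enters the comparison of MCT with sham mice only through the shared spread, that comparison gave -0.57 (limma adjusted p = 0.0407). The SD of Rgs2 was 0.426 in MCT+NI mice, 0.220 in MCT mice and 0.062 in sham mice.

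Rgs3, which is transcribed as several isoforms, was the only member with more than 1 probe set, and its 2 probe sets did not behave alike. The brighter one, which represents the gene, measured 6.25, 6.37 and 6.35 in MCT+NI mice, 6.34, 6.35 and 6.41 in MCT mice, and 6.35, 6.00 and 6.34 in sham mice. The groups overlapped, and sham mouse 624 was the one low value. The difference from sham was 0.10 in MCT+NI mice (limma adjusted p = 0.625) and 0.14 in MCT mice (limma adjusted p = 0.468).

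The dimmer Rgs3 probe set, which is annotated to further transcripts of the gene, measured 5.28, 5.28 and 5.39 in MCT+NI mice, 5.43, 5.48 and 5.58 in MCT mice, and 5.60, 5.86 and 5.99 in sham mice. Its groups did not overlap in any of the 3 comparisons, with MCT+NI mice lowest and sham mice highest. With p-values adjusted over all rows of the array, the difference from sham was -0.50 ± 0.105 in MCT+NI mice (SE, limma adjusted p = 0.0521) and -0.32 in MCT mice (limma adjusted p = 0.206). MCT+NI mice differed from MCT mice by -0.18 (95% interval -0.42 to 0.06, limma adjusted p = 1). None of these passed the threshold. The mean of both probe sets differed from sham by -0.20 in MCT+NI mice and by -0.091 in MCT mice, so the sign for Rgs3 turned with the choice of probe set.

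**Figure D2:**
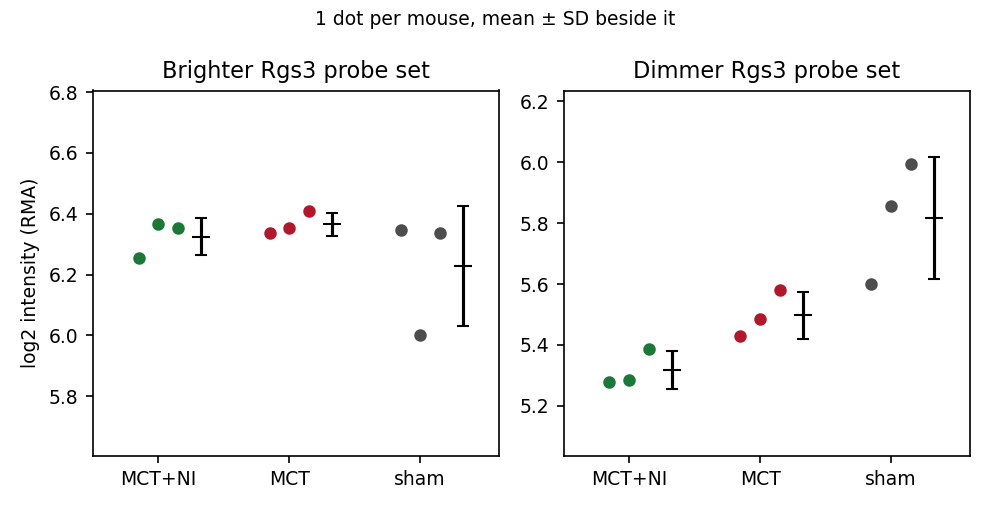
Log2 intensity of the brighter and the dimmer Rgs3 probe set in each mouse (1 dot per mouse) of the MCT+NI, MCT and sham groups, with the mean and SD of 3 mice as a bar beside the dots. The brighter probe set overlapped between groups, whereas the dimmer one ranged from 5.28 to 5.39 in MCT+NI mice, 5.43 to 5.58 in MCT mice and 5.60 to 5.99 in sham mice.

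Counted over the 4 members that were not chosen for their rise, at an adjusted p under 0.05, 2 were higher and 0 were lower in MCT mice compared to sham. Of all genes tested, 4.65% were called higher and 1.61% lower in that comparison, 6.26% together. Between MCT+NI and sham mice the count was again 2 higher and 0 lower, beside 4.52% called higher and 1.75% lower of all genes. With Rgs2, 3 of the 4 had an unadjusted p under 0.05 in either comparison, beside 19.7% of all genes for MCT mice and 19.5% for MCT+NI mice. Counted by groups that did not overlap, and by the brightest probe set of each gene, 2 of the 4 were higher and 1 was lower in MCT mice, beside 11.7% higher and 10.2% lower of all genes (21.9% together). The same counts held for MCT+NI mice, beside 10.7% higher and 10.3% lower (21% together). The comparisons with sham use the same sham mice, so their counts are not independent. The 4 members were taken with results of these mice known, so the counts are a description only. Of the 4, 0 lay below the median gene. A fit of only the genes at or above it called 1297 between MCT and sham mice, against 1179 in the fit of all genes. The former fit held far fewer genes, so these counts have different denominators. The share of all genes is thus lower than the share at the level of these members. The median log2 difference of all genes was -0.02 in either comparison with sham.

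No member differed between MCT+NI and MCT mice by this test. The count was 0 of 4, beside 0% of all genes called (545 genes, 2.9%, had an unadjusted p under 0.05). By the brightest probe set of each gene, groups without overlap were found for 0 of the 4, beside 6.08% of all genes (3.11% higher and 2.96% lower). The dimmer Rgs3 probe set was lower in MCT+NI mice without overlap. The difference was 0.07 for Rgs4 (95% interval -0.11 to 0.24), 0.09 for Rgs5 (-0.16 to 0.34), -0.19 for Rgs2 (-0.62 to 0.24) and -0.04 for the brighter Rgs3 probe set. For Rgs4 and Rgs5 the interval ended short of the size of the difference from sham, and for Rgs2 it reached past the -0.57 of MCT against sham mice on the lower side only. With MCT mouse 644 and MCT+NI mouse 615 left out, Rgs2 differed by 0.047, Rgs3 by 0.016, Rgs4 by -0.031 and Rgs5 by -0.039, each with the sign turned. The MCT mice are shared between this comparison and that of MCT with sham mice.

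The remaining RGS genes were set beside the members. Of 15 listed, 13 were measured by a probe set of their own, and 9 of these lay below the median gene. In MCT against sham mice 1 was higher and 0 were lower, and in MCT+NI against sham mice 1 was higher and 1 was lower. Of all genes, 4.65% were higher and 1.61% lower in the MCT mice, and 4.52% and 1.75% in the MCT+NI mice, so that 1 of 13 is near the share of all genes. Their median log2 difference from sham was 0.02 in MCT+NI mice and -0.06 in MCT mice, beside the -0.02 of all genes. The other R4 genes that were measured, Rgs1, Rgs8, Rgs13 and Rgs18, all lay below the median gene and had differences of -0.13 to -0.05 between MCT and sham mice. Rgs8, the neighbour of Rgs16, differed by -0.06.

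Rgs12, a large multidomain RGS protein that acts on Gi alpha subunits, measured 6.75, 6.76 and 6.93 in MCT+NI mice, 6.69, 6.96 and 6.83 in MCT mice, and 5.44, 6.18 and 5.97 in sham mice. It was higher than in sham by 0.95 in MCT+NI mice (limma adjusted p = 0.0109) and by 0.97 ± 0.167 in MCT mice (SE, 1.95-fold, limma adjusted p = 0.00982). Rgs7, a member of the R7 subfamily that works as a complex with Gnb5, ran the other way, with 5.31, 5.95 and 6.09 in MCT+NI mice, 6.00, 5.81 and 6.09 in MCT mice, and 6.68, 6.78 and 6.56 in sham mice. It was lower in MCT+NI mice, with a difference from sham of -0.89 ± 0.181 (SE, limma adjusted p = 0.0222), whereas the -0.71 of MCT mice did not pass (limma adjusted p = 0.0561). Rgs6, of the same subfamily and named after its values were seen, measured 6.92, 7.01 and 6.93 in MCT+NI mice, 6.82, 7.10 and 7.39 in MCT mice, and 7.28, 7.70 and 7.78 in sham mice. Its difference from sham was -0.64 in MCT+NI mice, without overlap (limma adjusted p = 0.0503), and -0.49 in MCT mice, with overlap (limma adjusted p = 0.126). Of the 4 R7 genes, 1 was higher and 2 were lower without overlap in MCT+NI mice, beside 10.7% and 10.3% of all genes. In MCT mice 1 was higher and 1 lower, beside 11.7% and 10.2%. The higher one was Rgs9, also named after its values were seen, by 0.24 in MCT+NI and 0.19 in MCT mice. Rgs9 lay below the median gene and was not called. Of 14 further genes with an RGS homology domain, such as the G-protein coupled receptor kinases and axins, 10 were measured and 0 were called, with differences of -0.20 to 0.19 between MCT and sham mice.

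**Figure D3:**
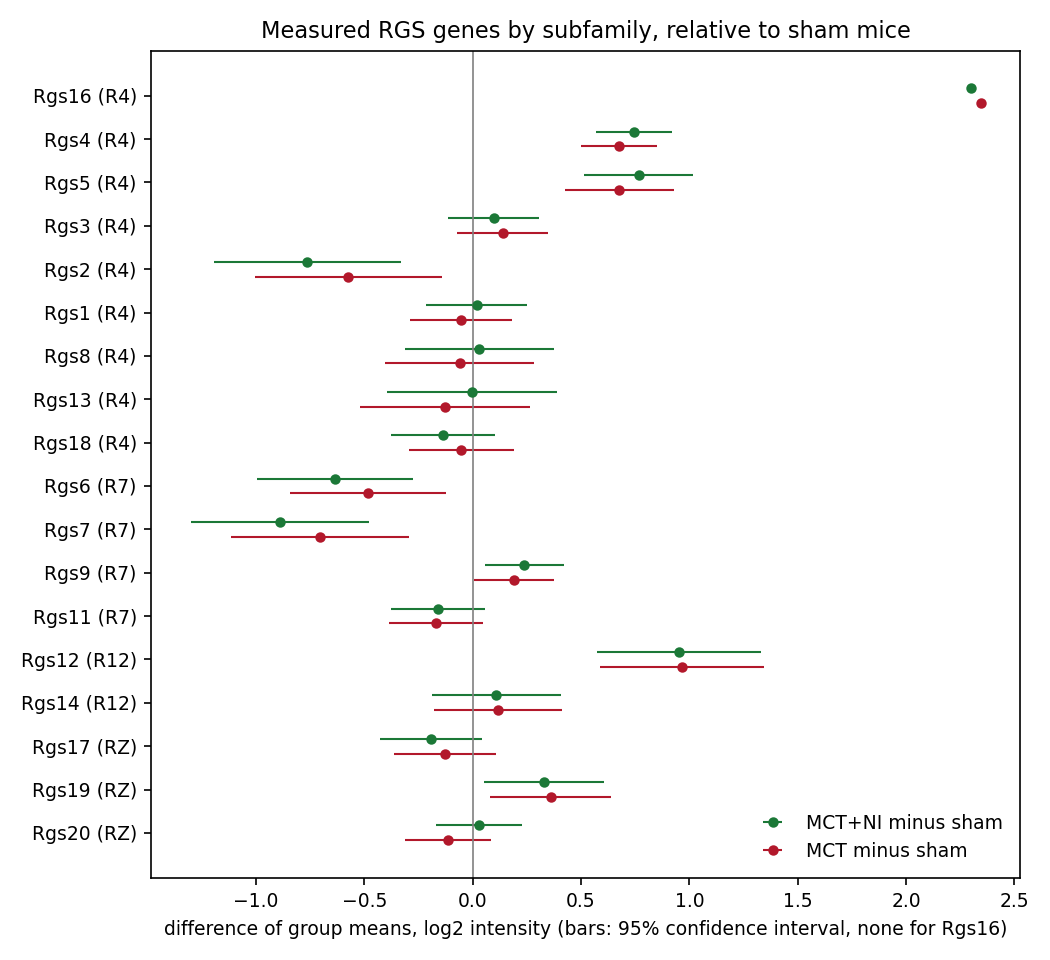
Difference of group means in log2 intensity (horizontal axis) of each measured RGS gene, by subfamily, for MCT+NI minus sham (green) and MCT minus sham (red), with the 95% interval of the limma fit as bars except for Rgs16. Rgs16, at 2.35 between MCT and sham mice, lay beyond every other RGS gene plotted, followed by Rgs12 at 0.97, and Rgs7, Rgs6 and Rgs2 lay at -0.71, -0.49 and -0.57.

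Genes upstream and downstream of the members were counted over 5 lists of RGS partners and N-degron enzymes, G alpha subunits, G beta and gamma subunits, receptors and effectors, of which 87 of 103 listed genes were measured. Compared to sham, 12 were higher and 3 lower in MCT+NI mice, and 11 were higher and 2 lower in MCT mice, beside 6.26% of all genes called in each of these comparisons. MCT+NI and MCT mice gave 0 calls among them. Among the 14 partners and N-degron enzymes, some of which set the lifetime of Rgs4, Rgs5 and Rgs16 proteins, 0 were called between MCT and sham mice. The enzymes that oxidize and arginylate the exposed cysteine and that recognize it, Ado, Ate1, Ubr1 and Ubr2, differed by 0.19, 0.01, 0.03 and -0.22 there. Ubr2 ranged from 8.65 to 8.78 in MCT+NI mice, 8.62 to 8.76 in MCT mice and 8.79 to 9.03 in sham mice, without overlap (limma adjusted p = 0.156 in MCT+NI mice and 0.102 in MCT mice). By groups without overlap, 1 of the 14 was higher (Ado) and 3 were lower, among them Ubr2, in MCT than in sham mice. Of all genes, 11.7% were higher and 10.2% lower by that count. Between MCT+NI and sham mice 0 were higher and 5 lower, beside 10.7% and 10.3% of all genes. MCT+NI mice lay below MCT mice without overlap for 2 of the 14, beside 2.96% of all genes. These were Ado, by -0.21, and Ate1, by -0.083 (limma adjusted p = 1 for each).

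Of the 13 measured G alpha subunits, the substrates of RGS proteins, Gnai2 was the one called, at 0.40 above sham in MCT+NI mice (limma adjusted p = 0.00193) and 0.48 in MCT mice (limma adjusted p = 0.000677). Of 13 measured G beta and gamma subunits, 4 were higher in MCT mice: Gng11 by 0.88, Gnb4 by 0.70, Gnb1 by 0.30 and Gng12 by 0.30. Of 31 measured receptors, 5 were higher and 2 lower. The higher ones were led by the thrombin receptor F2rl3 at 0.95 (limma adjusted p = 0.000154), the sphingosine phosphate receptors S1pr3 at 0.998 and S1pr1 at 0.23, and the lysophosphatidic acid receptor Lpar4 at 0.96. F2rl3 ranged from 5.35 to 5.46 in MCT+NI mice, from 5.31 to 5.47 in MCT mice and from 4.38 to 4.47 in sham mice. The receptors not covered by the naming rule, and named here after their values were seen, were Aplnr at 0.71 and the muscarinic receptors Chrm3 and Chrm2 at -0.65 and -0.36. Of 16 measured effectors, 1 was called in MCT mice, the inositol trisphosphate receptor Itpr2 at 0.21 (limma adjusted p = 0.0309). Of all genes, 4.65% were called higher and 1.61% lower in MCT mice, and 4.52% and 1.75% in MCT+NI mice. The counts of 1 of 13 and 1 of 16 are thus near the share of all genes. The genes lower in MCT+NI mice, also named after their values were seen, were Chrm2 at -0.42, Cited2 at -0.32 and Kcnj3 at -1.22 (limma adjusted p = 0.0171), a subunit of the potassium channel that Gi-coupled receptors open in atrial cells. The atrial markers were lower in MCT+NI than in sham mice as well, and their part in these values was not tested.

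The cells that carry these mRNAs were not separated. In whole ventricle, more cells of a type and more RNA per cell cannot be told apart. The marker counts below stand beside 4.52% of all genes called higher and 1.75% lower in MCT+NI mice, and 4.65% and 1.61% in MCT mice. Of 12 markers of mural cells (pericytes and smooth muscle, without the RGS genes themselves), 8 were higher and 0 lower than in sham both in MCT+NI and in MCT mice. Their mean ranged from 8.26 to 8.33 in MCT+NI mice, from 8.17 to 8.40 in MCT mice and from 7.72 to 7.79 in sham mice. The mean of 9 fibroblast markers, of which 3 were higher in MCT+NI mice and 4 in MCT mice, ranged from 8.59 to 8.97 in MCT+NI mice, 8.83 to 8.91 in MCT mice and 8.28 to 8.57 in sham mice. Mural and fibroblast means were thus both higher in every MCT-injected mouse than in any sham mouse. Single markers did not all move that way. By groups without overlap, 5 fibroblast markers were higher and 1 lower in MCT mice, beside 11.7% and 10.2% of all genes. The lower one was Pdgfra, at 7.77 to 8.21 in MCT+NI mice and 8.22 to 8.27 in sham mice. Of the mural markers, 10 were higher and 0 lower by this count, and Cnn1 differed by -0.21 in MCT mice, with overlap.

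Of 9 endothelial markers, 5 were called higher and 1 lower (Tek, by -0.62) in MCT+NI mice, and 4 higher and 0 lower in MCT mice. By groups without overlap, 5 were higher and 3 lower in MCT+NI mice, beside 10.7% and 10.3% of all genes. In MCT mice 5 were higher and 2 lower, beside 11.7% and 10.2%. Vwf had the lowest differences, at -0.97 in MCT+NI and -0.67 in MCT mice. The mean of the endothelial markers ranged from 8.65 to 8.89 in MCT+NI mice, 8.78 to 8.83 in MCT mice and 8.51 to 8.74 in sham mice, so that the MCT mice lay above sham and the MCT+NI mice overlapped with it. Of 8 macrophage markers, 1 was higher and 2 lower in MCT+NI mice, and 3 were higher and 1 lower in MCT mice. Their mean ranged from 7.39 to 7.68 in MCT+NI mice, 7.45 to 7.82 in MCT mice and 7.27 to 7.55 in sham mice, with overlap. The 7 measured lymphocyte markers all lay below the median gene, with 1 higher in each injected group. Their mean ranged from 4.14 to 4.91 in MCT+NI mice, 4.27 to 4.68 in MCT mice and 3.90 to 4.16 in sham mice, and the MCT mice did not overlap with sham. The part of fibroblasts, endothelium, macrophages and lymphocytes in the differences of the members was not tested.

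The mural markers were set beside the members mouse by mouse. The shift of Rgs5 from the sham mean, less that of the mean mural marker, was 0.178 to 0.254 in MCT+NI mice, -0.002 to 0.25 in MCT mice and -0.136 to 0.175 in sham mice. MCT mice thus overlapped with sham mice, and MCT+NI mice lay just above them. For Rgs4 the same measure was 0.10 to 0.28 in MCT+NI mice, 0.01 to 0.18 in MCT mice and -0.08 to 0.13 in sham mice, and both injected groups overlapped with sham. Rgs2 had -1.80 to -0.87 in MCT+NI mice, -1.45 to -0.96 in MCT mice and -0.09 to 0.09 in sham mice. For Rgs16, whose rise was the reason for its choice, the values were 1.47 to 1.93 in MCT+NI mice, 1.68 to 1.91 in MCT mice and -0.17 to 0.17 in sham mice, and they are a description only. With the mean mural marker as a covariate, a fit chosen after the data were seen, the difference between MCT and sham mice was -0.11 for Rgs5, 0.40 for Rgs4 and 0.029 for Rgs2, none of them called (limma adjusted p = 1 for each). In that fit 1 gene in all was called between MCT and sham mice. The mean mural marker did not overlap between MCT-injected and sham mice, so the fit cannot separate it from the injection. No conclusion is drawn from the lost calls, and the part of mural cells in the differences of the members was not tested.

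**Figure D4:**
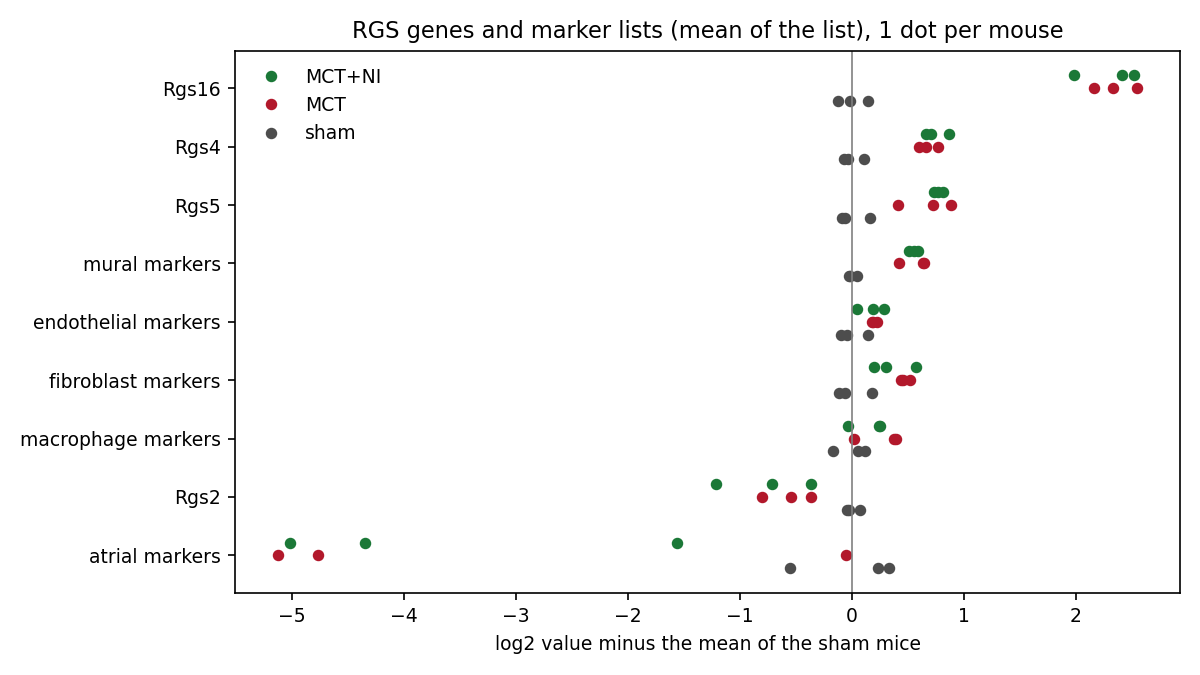
Log2 value minus the mean of the sham mice (horizontal axis) for Rgs16, Rgs4, Rgs5, Rgs2 and the means of marker lists. The lists drawn are mural, endothelial, fibroblast, macrophage and atrial, with 1 dot per mouse in the MCT+NI (green), MCT (red) and sham (grey) groups. Rgs16, Rgs4, Rgs5 and the mural and fibroblast markers lay above sham in each MCT-injected mouse, and the atrial markers split the MCT+NI and MCT groups.

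The genes with the pattern most like that of a member were looked up for the 2 members whose values spanned at least 1 on the log2 scale, Rgs16 (span 2.67) and Rgs2 (span 1.28). The measure was the root mean square difference over the 9 mice between log2 values, each taken relative to its own sham mean, among genes at or above the median level. The 3 genes nearest to Rgs16 were Nes at 0.179, which encodes the intermediate filament nestin, Meox1 at 0.187, a homeobox transcription factor, and the predicted gene Gm10825 at 0.256. The 3 nearest to Rgs2 were Cfap61 at 0.158, Dixdc1 at 0.167 and Ccdc141 at 0.174. These are descriptions over the same 9 mice and share the difference between MCT-injected and sham mice.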

How the data were processed

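Right ventricular RNA of 9 mice was measured, 3 per group. The authors computed the deposited log2 intensity values from the scans by robust multi-array analysis (RMA, version not given), which corrects background, equalizes the arrays and shrinks differences of dim probe sets. The values were used as deposited. Of 35556 rows, 21218 had 1 gene in the platform annotation, 1881 had several and 12457 had none, and only rows with 1 gene were tested. The brightest probe set represented a gene. Group means of all 9 mice were fitted together with limma 3.58.1 (R 4.3.3), letting the variance prior follow intensity. Its two-sided p-values were adjusted by Benjamini-Hochberg over the 18820 genes. The procedure was tested on simulated data. Files and labels gave no batch. The members and lists were chosen with earlier results of these data known. Named were the members, any other RGS gene past an adjusted p of 0.05, up to 4 genes with the smallest p per pathway list, and the 3 genes most like a member. Alternatives covered the probe set rule, variance model, filter on dim genes, atrial and mural covariates, and each mouse left out. The table carries the manufacturer's probe sets, although Entrez-based redefinition is what the methods state. Labels and methods differ on the RNA kit and the start of the diets.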

Additional observations from a re-analysis of the deposited data

How the results depend on the processing

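Apart from the pair of settings chosen later, Rgs2, Rgs3, Rgs4 and Rgs5 kept their direction and side of the threshold in 205 of 219 values, and the number of genes called stayed within 1.5 times in 48 of 54. Rgs16, which has no test, kept its sign in 52 of 54, the exceptions being MCT+NI against MCT mice at 0.055 without MCT mouse 641 and 0.118 without MCT+NI mouse 617. For Rgs2 the difference between MCT+NI and sham mice stayed at -0.76 but passed with robust variance estimation (limma adjusted p = 0.044) and among genes at or above the median level (0.0337), and was -0.96 without MCT+NI mouse 617 (0.0126). Between MCT and sham mice Rgs2 passed at -0.57 in a fit of those mice alone (0.0418) and without MCT+NI mouse 615 (0.0407). Rgs3 reversed with the mean of its probe sets (-0.091 and -0.20 for MCT and for MCT+NI against sham) and with the dimmer one (-0.32 and -0.50). With the atrial covariate Rgs5 was 0.47 and 0.54, and 501 and 366 genes were called. The atrial mean did not overlap between MCT+NI and sham mice, so no conclusion is drawn from the lost calls.

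With 1 mouse left out, the number of genes called ranged from 676 (without MCT mouse 640, 767 without MCT mouse 641) to 1196 between MCT and sham mice, from 625 (without MCT+NI mouse 619, 682 without MCT+NI mouse 615) to 1183 between MCT+NI and sham mice, and was 0 between MCT+NI and MCT mice. The differences between MCT and sham mice ranged from -0.68 to -0.46 for Rgs2, 0.02 to 0.20 for Rgs3, 0.63 to 0.73 for Rgs4, 0.57 to 0.81 for Rgs5 and 2.25 to 2.44 for Rgs16. Those between MCT+NI and sham mice ranged from -0.96 to -0.54, -0.017 to 0.16, 0.68 to 0.80, 0.72 to 0.85 and 2.20 to 2.46 in the same order of genes, and those between MCT+NI and MCT mice from -0.39 to 0.034, -0.06 to -0.01, 0.01 to 0.11, -0.041 to 0.20 and -0.15 to 0.12.

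Chosen after seeing the data, leaving out MCT mouse 644 together with MCT+NI mouse 615 gave 720 genes called between MCT+NI and sham mice. For MCT+NI against MCT it turned the sign, to 0.047 for Rgs2, 0.016 for Rgs3, -0.031 for Rgs4 and -0.039 for Rgs5. The mural covariate left 1 gene called in either comparison with sham. In MCT and MCT+NI mice it gave Rgs2 0.029 and -0.18, Rgs4 0.40 and 0.48, Rgs5 -0.11 and 0.001, and Rgs16 1.59 and 1.57. That covariate did not overlap between MCT-injected and sham mice, so the fit cannot separate it from the injection. No paired analysis was possible because the mice carry no shared replicate numbers between groups. The cause of these changes was not tested.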
